A study of Mus musculus with 8 samples.

Results

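The genes described here are 10 members of the mouse MHC class I antigen presentation pathway: the heavy chains H2-K1 and H2-D1, their light chain B2m, the peptide transporter subunits Tap1 and Tap2, the transporter's partner Tapbp, the immunoproteasome subunits Psmb8, Psmb9 and Psmb10, and the transcriptional regulator Nlrc5. They were found by matching these 10 symbols to the Ensembl gene identifiers in the count files, and are 10 of the 53647 genes listed. All 10 passed the filter on low counts, which left 15603 genes. The rule itself names symbols and uses no measured value, although it was written with earlier results of these data known.

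RNA was sequenced from primary myotubes of wild-type mice, the multinucleated cells formed when cultured myoblasts fuse. Per the labels, limb muscles of 2 to 3 day old pups gave the myoblasts, and medium with 5% horse serum was used for differentiation. Myotubes received IL6 (interleukin 6), LIF (leukaemia inhibitory factor) or OSM (oncostatin M) for 48 h at 250 ng/ml, or none of the 3 in the control group, and RNA was taken 72 h after the start of differentiation. Each of the 4 groups had 2 libraries, and the labels give neither the mouse strain nor whether the libraries of a group came from separate animals or dishes. The p-values therefore measure only the spread between these libraries, which may be technical.

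MHC class I molecules carry peptides from inside the cell to its surface, where CD8 T cells and natural killer cells read them. Peptides are cut by the proteasome, of which the immunoproteasome is a form with exchanged catalytic subunits. TAP1 and TAP2 pump the peptides into the endoplasmic reticulum, tapasin (the product of Tapbp) holds an empty class I molecule at the pump, and the loaded heavy chain travels to the surface with beta-2 microglobulin, the product of B2m. NLRC5 raises transcription of this gene set, and interferons are its best known inducers. Resting skeletal muscle fibres are known for little class I protein on their surface, and inflamed muscle for more of it. IL6, LIF and OSM belong to a cytokine family that uses the receptor subunit gp130 in common.

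Each library held between 29482077 and 30025471 counts. Levels are given as CPM, the count relative to library size with TMM factors (edgeR's trimmed mean of M values), and a change as a log2 ratio with its standard error (SE). A gene was called changed at an adjusted p under 0.05 in edgeR's quasi-likelihood test over all 15603 genes. The 10 myotube markers summed to 24051 to 25083 CPM in control, 20820 to 23580 CPM with IL6, 22065 to 23367 CPM with LIF and 21261 to 21431 CPM with OSM. The libraries of all 3 cytokines therefore lay below the controls, and the lowest was an IL6 library. With OSM, 2 of the 10 fell (Myog by 0.53 and Myh8 by 0.20 on the log2 scale, adjusted p = 0.000749 and 0.0408) and Des rose by 0.30 (adjusted p = 0.00382). With LIF the calls were in the same 3 genes and directions. Of all tested genes, 21.2% were called with OSM and 7.7% with LIF. The 7 lymphocyte and natural killer markers together reached at most 0.103 CPM. The 10 macrophage and myeloid markers summed to 3.05 to 3.49 CPM in control, 3.71 to 5.33 CPM with IL6, 4.34 to 4.72 CPM with LIF and 5.77 to 6.64 CPM with OSM. Of these 10, 7 had at most 7 counts in any library, and Aif1 and Tyrobp were at 0 in all 8. Cd68 was the largest part of the sum in each library, with 54 and 63 counts in control, 81 and 72 with IL6, 74 and 73 with LIF, and 125 and 114 with OSM. It rose by 1.03 on the log2 scale with OSM (SE 0.19, adjusted p = 0.00163), and was the only one of the 3 tested myeloid markers to be called.

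The members did not move as a set. With OSM, H2-K1 rose 1.54-fold, H2-D1 fell by 26.3% and Tap1 fell by 38.2%, while the other 7 members were not called. With LIF, H2-K1 rose by 33.9% and no other member was called. With IL6 no member was called. Thus 3 of 10 members were called with OSM, where 21.2% of all tested genes were called (10.7% higher and 10.5% lower). With LIF it was 1 of 10 members, against 7.7% of all tested genes. With IL6 it was 0 of 10 members, where 0% of all tested genes were called. The median log2 change over the 10 members was -0.07 with OSM, 0.0013 with LIF and -0.18 with IL6, where the medians over all tested genes were -0.0027, -0.0078 and 0.00056.

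**Figure D1:**
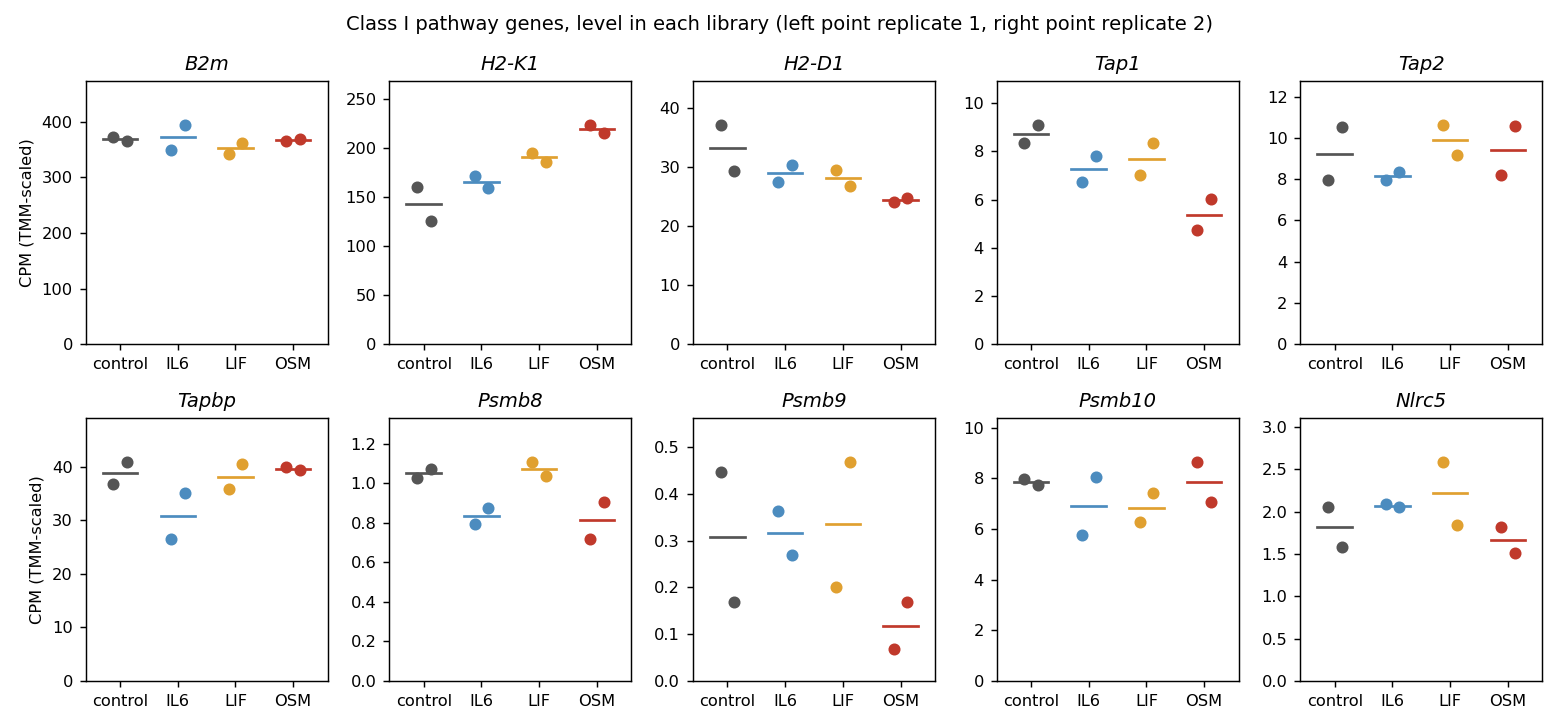
Level of each of the 10 members in each of the 8 libraries, in TMM-scaled CPM on axes that start at 0; points are libraries (left replicate 1, right replicate 2), lines are group means, and each gene has its own scale. H2-K1 is highest in the OSM libraries (223 and 215 CPM), Tap1 and H2-D1 are lowest there, and B2m stays between 343 and 394 CPM.

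The pathway genes differed widely in abundance, and the order was nearly the same in each group. Per kilobase of exon, the control levels were 429 ± 5.51 CPM for B2m, 48.4 ± 8.32 CPM for H2-K1, 12.9 ± 2.14 CPM for H2-D1, 10.7 ± 0.809 CPM for Tapbp and 4.60 ± 0.0984 CPM for Psmb10 (SD, n = 2). Below them came Tap2 with 2.44 ± 0.477 CPM per kilobase, Tap1 with 1.59 ± 0.0984, Psmb8 with 0.311 ± 0.00945, Nlrc5 with 0.214 ± 0.0400 and Psmb9 with 0.0839 ± 0.0537 (SD, n = 2). In control, no neighbours in this order overlapped at the lengths used. These lengths are the union of all annotated exons, which can exceed the longest transcript (for H2-K1, 2938 against 1874 bases). The order of close neighbours depends on the length chosen, and other lengths were not tested. With OSM the order of H2-D1 and Tapbp turned: Tapbp stood at 10.9 ± 0.109 and H2-D1 at 9.50 ± 0.196 CPM per kilobase (SD, n = 2), without overlap. H2-D1 and Tapbp overlapped with LIF, and Psmb8 and Nlrc5 overlapped with IL6 and with OSM, so those neighbours did not differ beyond their spread. The light chain B2m was therefore the most abundant member and the immunoproteasome subunits Psmb8 and Psmb9, with the regulator Nlrc5, were the scarcest.

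The heavy chains are the peptide-binding subunits, and H2-K1 and H2-D1 lie in the MHC on chromosome 17. The 250 bases upstream of the annotated start site are shown for H2-K1, H2-D1, H2-Q10 and B2m because the first pair moved in opposite directions, H2-Q10 had the largest rise of any tested heavy chain gene, and B2m, which all of them need, was not called. The sequences are RefSeq's for GRCm38.p6, read 5′ to 3′ in the direction of the gene, at chr17:34000348-34000597 on the minus strand for H2-K1, chr17:35262844-35263093 on the plus strand for H2-D1, chr17:35469839-35470088 on the plus strand for H2-Q10 and chr2:122147437-122147686 on the plus strand for B2m. RefSeq lists 2 start sites for H2-K1, and the upstream one was used. Capitals mark motif matches on either strand.
H2-K1: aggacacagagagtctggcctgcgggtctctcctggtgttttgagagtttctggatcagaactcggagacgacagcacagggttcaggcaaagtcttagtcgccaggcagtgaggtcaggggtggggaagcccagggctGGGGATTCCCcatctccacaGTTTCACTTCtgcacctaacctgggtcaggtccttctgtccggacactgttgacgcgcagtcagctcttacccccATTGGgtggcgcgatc
H2-D1: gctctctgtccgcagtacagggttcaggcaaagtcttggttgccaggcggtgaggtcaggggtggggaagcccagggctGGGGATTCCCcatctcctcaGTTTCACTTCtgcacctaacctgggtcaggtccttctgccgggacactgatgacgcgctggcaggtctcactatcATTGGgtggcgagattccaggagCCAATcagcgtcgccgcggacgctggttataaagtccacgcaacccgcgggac
H2-Q10: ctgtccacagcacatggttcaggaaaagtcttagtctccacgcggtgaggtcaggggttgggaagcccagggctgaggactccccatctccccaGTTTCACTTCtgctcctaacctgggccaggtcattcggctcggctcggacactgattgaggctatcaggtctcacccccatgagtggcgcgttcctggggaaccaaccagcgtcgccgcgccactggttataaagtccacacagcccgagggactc
B2m: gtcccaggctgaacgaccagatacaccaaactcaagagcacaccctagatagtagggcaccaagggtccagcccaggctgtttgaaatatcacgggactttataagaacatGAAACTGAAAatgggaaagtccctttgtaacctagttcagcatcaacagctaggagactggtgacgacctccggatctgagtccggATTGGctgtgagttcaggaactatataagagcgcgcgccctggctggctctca
RefSeq windows of 300 bases, from 250 before to 50 after the start site, were found for 8 of the 10 members (not Tap2 and Nlrc5). Where these windows aligned, H2-K1 and H2-D1 were identical at 211 of 239 bases (88.3%), H2-K1 and H2-Q10 at 196 of 231 (84.8%) and H2-D1 and H2-Q10 at 254 of 291 (87.3%). Gaps and unaligned bases of the windows were not counted. The windows are offset, and the leftmost capitals begin at base -111 in H2-K1 and -171 in H2-D1.

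On both strands 5 motifs were searched: an NF-kB site (the leftmost capitals in the H2-K1 and H2-D1 sequences), an IRF element (the next capitals in both, and the only ones in H2-Q10, read on the opposite strand, with any base at its 4th and 5th positions), an interferon-stimulated response element core (the leftmost capitals in B2m, with any base at its 5th and 6th positions), a STAT site called GAS (TTCNNNGAA) and the CCAAT box (CCAAT). The IRF element was added after the windows had been read, and a stretch can match both it and the response element core. The NF-kB letters occurred in 35 of 32817 windows (0.107%), and both H2-K1 and H2-D1 held them, 10 bases from an IRF element, which 1.73% of all windows held. The H2-K1 and H2-D1 windows are largely identical where they align, so their matches are not independent. The share over all windows says how common the letters are, and is not a test of their presence in these genes. H2-Q10 held the IRF element but not the NF-kB letters. Only exact matches to these letters were counted, and NF-kB sites spelled otherwise were not searched. B2m and H2-T23 each held the response element core, present in 3.43% of all windows, and a CCAAT box, present in 37.4%. The windows of Tap1 and Psmb9 overlap on opposite strands, and the CCAAT box that each held is the same stretch of bases. Tapbp held 2 CCAAT boxes, Psmb8 held a GAS site (8.29% of all windows) and Psmb10 held none of the 5. A match is a description of letters, and binding was not measured.

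**Figure D2:**
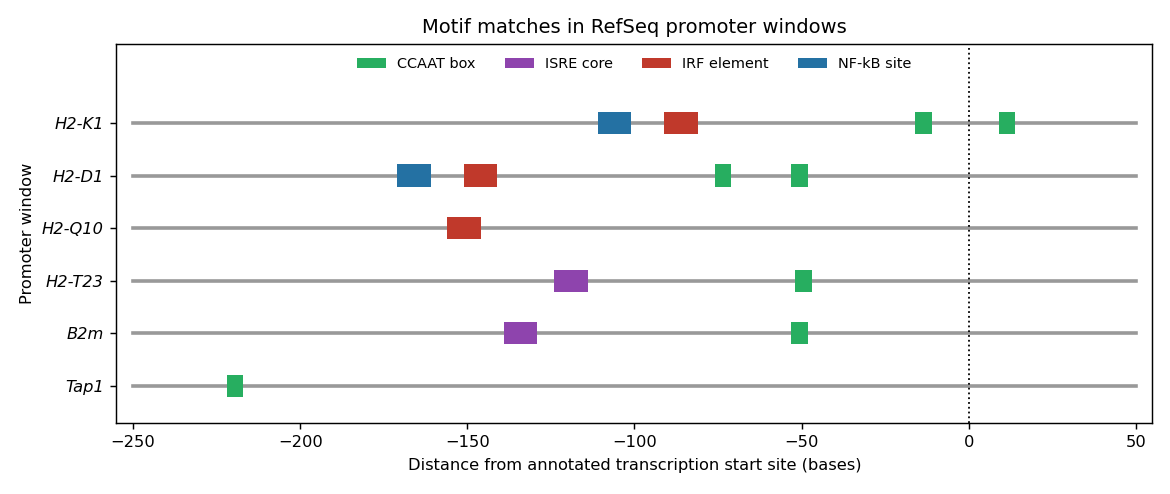
Position of motif matches in the RefSeq promoter windows of 6 genes, in bases from the annotated transcription start site (dotted line); each grey line is a window of 300 bases and each box a match on either strand. H2-K1 and H2-D1 share an NF-kB site, an IRF element and 2 CCAAT boxes in the same order, H2-Q10 has the IRF element alone, and Tap1 has a single CCAAT box.

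H2-K1 was the member with the clearest response. It stood at 159.5 CPM in control replicate 1 and 125 CPM in control replicate 2, at 171 and 159.5 CPM with IL6, at 195 and 186 CPM with LIF, and at 223 and 215 CPM with OSM. Both OSM libraries lay above both LIF libraries, which lay above both IL6 libraries, and IL6 replicate 2 was level with control replicate 1. Against control, H2-K1 rose by 0.62 on the log2 scale with OSM (SE 0.094, adjusted p = 0.000483) and by 0.42 with LIF (SE 0.094, adjusted p = 0.0166). The IL6 value was 0.22 (SE 0.094, adjusted p = 0.936, 95% interval 0.01 to 0.42). Without control replicate 1 or 2, the OSM value was 0.81 or 0.47, called in each case. The LIF call was lost without control replicate 2 (0.26, adjusted p = 0.0591), LIF replicate 1 (adjusted p = 0.138) or LIF replicate 2 (adjusted p = 0.0877).

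H2-D1, the other classical heavy chain, went the opposite way. It stood at 37.2 and 29.4 CPM in control replicates 1 and 2, 27.6 and 30.4 CPM with IL6, 29.5 and 26.9 CPM with LIF, and 24.2 and 24.9 CPM with OSM. The OSM libraries were the lowest of the 8, and control replicate 1 was the highest. The fall with OSM was called, at a log2 change of -0.44 (SE 0.11, adjusted p = 0.011). The LIF value of -0.24 (SE 0.11, adjusted p = 0.225) and the IL6 value of -0.20 (SE 0.11, adjusted p = 0.936) were not called. The OSM call was lost without control replicate 1 (-0.26, adjusted p = 0.117), OSM replicate 1 (-0.41, adjusted p = 0.103) or OSM replicate 2 (-0.46, adjusted p = 0.0682). Without control replicate 2 the LIF value was called (-0.39, adjusted p = 0.0333).

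Because H2-K1 and H2-D1 are counted in the same library, their ratio does not depend on how libraries are scaled. There were 4.29 and 4.25 H2-K1 counts per H2-D1 count in control replicates 1 and 2, although replicate 1 had more of both. The ratio was 6.22 and 5.25 with IL6, 6.61 and 6.91 with LIF, and 9.24 and 8.65 with OSM. The groups did not overlap on this ratio, which is a description without a test. The ratio uses the same counts as the H2-K1 and H2-D1 changes above, and other gene pairs were not compared. In the GENCODE M21 transcripts, 8.11% of the 50-base stretches of H2-K1 and 14.3% of those of H2-D1 also occur in another gene, and 6.52% of those of H2-K1 occur in H2-D1. Reads that lie wholly within such stretches cannot be placed between the genes. The share of such reads and the match of the animals' alleles to the reference genome were not tested.

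**Figure D3:**
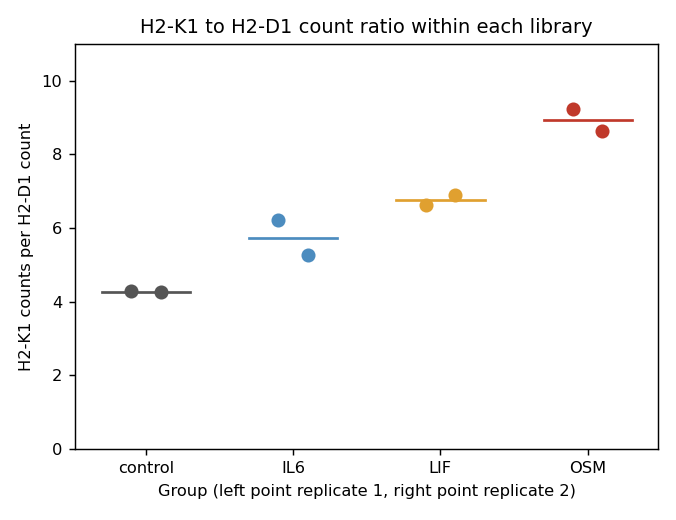
H2-K1 counts per H2-D1 count in each of the 8 libraries, on an axis that starts at 0; points are libraries and lines are group means. The control points are at 4.29 and 4.25, the OSM points are at 9.24 and 8.65, and the IL6 and LIF points are between them.

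B2m, the light chain that pairs with every class I heavy chain, was level across groups. It stood at 372 and 365 CPM in control, 349 and 394 CPM with IL6, 343 and 362 CPM with LIF, and 365 and 369.7 CPM with OSM. The OSM and control libraries overlapped. With OSM the log2 difference was -0.0040 (SE 0.066, adjusted p = 0.975), with a 95% interval from -0.15 to 0.14. The values with LIF (-0.07, adjusted p = 0.657) and IL6 (0.01, adjusted p = 0.994) were not called.

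Among the transporter genes, Tap1 fell with OSM and its partner Tap2 was not called. Tap1 stood at 8.34 and 9.10 CPM in control replicates 1 and 2, 6.71 and 7.82 CPM with IL6, 7.03 and 8.34 CPM with LIF, and 4.72 and 6.04 CPM with OSM. The OSM libraries were the lowest pair, and LIF replicate 2 reached the control level. The log2 change with OSM was -0.70 (SE 0.16, adjusted p = 0.00649), and with LIF and IL6 the values were -0.18 (adjusted p = 0.554) and -0.26 (adjusted p = 0.936). The OSM call was lost without OSM replicate 1 (-0.52, adjusted p = 0.109). An overlap with Psmb9 on the opposite strand covers 3.87% of the Tap1 exon bases, and the strand setting of the counting is not given in the sources used here.

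Tap2, which forms the pump with it, stood at 7.96 and 10.5 CPM in control, 7.94 and 8.33 CPM with IL6, 10.6 and 9.18 CPM with LIF, and 8.21 and 10.6 CPM with OSM. The control and OSM libraries overlapped almost fully, and the log2 difference was 0.02 (SE 0.16, adjusted p = 0.941, 95% interval -0.32 to 0.37). Predicted genes on the opposite strand overlap 18.5% of its exon bases. Tapbp, the tapasin gene, stood at 36.8 and 41.0 CPM in control, 26.4 and 35.0 CPM with IL6, 35.8 and 40.5 CPM with LIF, and 39.9 and 39.3 CPM with OSM. IL6 replicate 1 was the lowest library and both IL6 libraries lay below both controls. The Tapbp value with IL6 was -0.34 (SE 0.12, unadjusted p = 0.0129, adjusted p = 0.936), and it was called only when IL6 replicate 2 was left out (-0.56, adjusted p = 0.0202). Other genes overlap 29.0% of the Tapbp exon bases, most of it Gm19412 on the opposite strand.

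None of the immunoproteasome genes was called, and Psmb8 and Psmb9 were scarce. Psmb10 encodes the beta2i subunit and stood at 7.96 and 7.72 CPM in control, 5.76 and 8.06 CPM with IL6, 6.26 and 7.40 CPM with LIF, and 8.65 and 7.05 CPM with OSM. Its OSM and control libraries overlapped (log2 difference 0.00081, SE 0.17, adjusted p = 0.998). Psmb8, the beta5i gene, had 30 and 32 counts in control, 24 and 26 with IL6, 33 and 31 with LIF, and 21 and 27 with OSM. The OSM and IL6 libraries lay below the controls, with log2 values of -0.37 (SE 0.30, adjusted p = 0.422) and -0.33 (SE 0.29, adjusted p = 0.943). Psmb9, the beta1i gene, had 13 and 5 counts in control, 11 and 8 with IL6, 6 and 14 with LIF, and 2 and 5 with OSM. At these counts the log2 value with OSM was -1.33 with a 95% interval from -2.96 to 0.29 (adjusted p = 0.244), so a difference was not detectable at this depth.

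Nlrc5, the class I transactivator, had 60 and 47 counts in control, 63 and 61 with IL6, 77 and 55 with LIF, and 53 and 45 with OSM. After scaling, the control libraries overlapped the LIF and OSM libraries, IL6 replicate 2 was level with control replicate 1 (both 2.06 CPM), and the highest library was LIF replicate 1. Against control, OSM gave a log2 value of -0.13 (SE 0.26, adjusted p = 0.778), LIF one of 0.29 (SE 0.25, adjusted p = 0.582) and IL6 one of 0.19 (SE 0.25, adjusted p = 0.953).

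**Figure D4:**
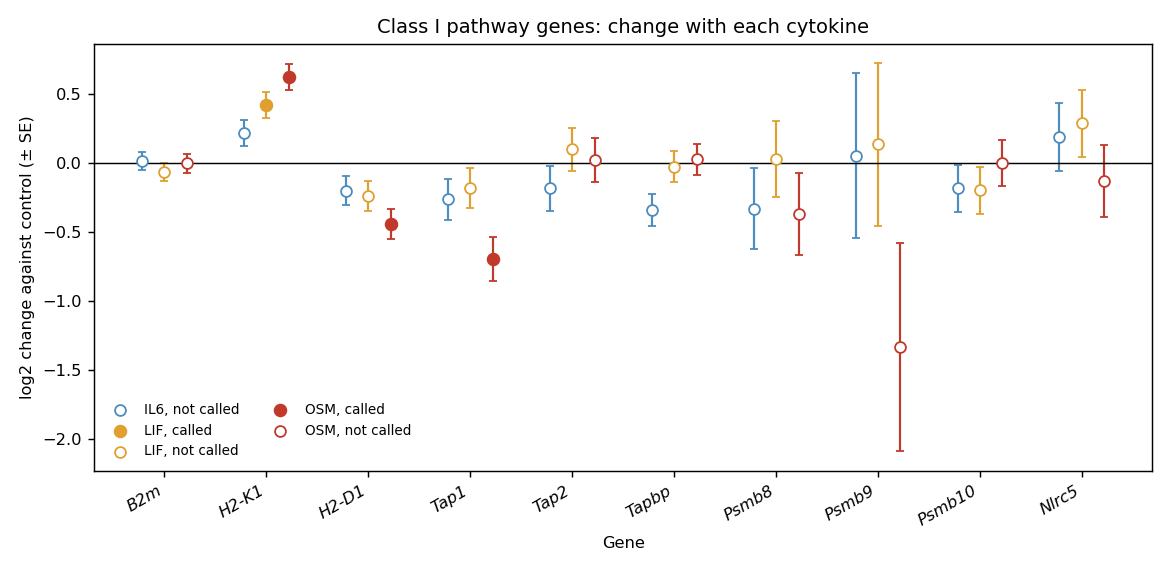
Log2 change of the 10 members against control for IL6, LIF and OSM, with the SE of the edgeR fit as bars; filled points were called at an adjusted p under 0.05 and open points were not. Filled points are H2-K1 with LIF (0.42) and OSM (0.62), and H2-D1 (-0.44) and Tap1 (-0.70) with OSM.

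When the cytokines were compared with each other, H2-K1 was the only member called. Its level with OSM was 1.32-fold that with IL6 (log2 difference 0.41, SE 0.093, adjusted p = 0.0108), which made 1 of 10 members where 15.6% of all tested genes were called. This call was lost without IL6 replicate 2 (adjusted p = 0.0615) or OSM replicate 1 (adjusted p = 0.0957). Between OSM and LIF, 0 of 10 members and 8.02% of all tested genes were called by edgeR. DESeq2 called 0 members and 1173 genes. In edgeR, an unadjusted p under 0.05 was reached by 3233 of the 15603 tested genes and by 2 members. These were H2-K1, higher by 0.20 with OSM (SE 0.093, adjusted p = 0.241, 95% interval 0.00019 to 0.40), and Tap1, at -0.51 (SE 0.16, adjusted p = 0.0723). Between LIF and IL6, 0 of 10 members and 2.76% of all tested genes were called by edgeR. DESeq2 called 0 members and 489 genes. In edgeR, an unadjusted p under 0.05 was reached by 2304 of the 15603 tested genes and by 1 member, Tapbp (log2 difference 0.31, adjusted p = 0.215). Against control with IL6, 2 members (H2-K1 and Tapbp) and 808 of all tested genes had an unadjusted p under 0.05, and DESeq2 called 17 genes and 0 members. The 3 comparisons with control share the same 2 control libraries.

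Around these members, the other class I and class I-like heavy chain genes rose with OSM in 3 of 10 tested cases and fell in 0. Of all tested genes, 10.7% were called higher with OSM and 10.5% lower. The rest of the list of 19, which is 9 genes, had at most 10 counts in any library and was not tested. H2-Q10, which encodes a secreted class I molecule best known from liver, had 18 and 21 counts in control, 41 and 23 with IL6, 54 and 59 with LIF, and 98 and 95 with OSM. The OSM libraries stood highest, then the LIF libraries, without overlap between these groups or with control. H2-Q10 rose by 2.30 on the log2 scale with OSM (SE 0.28, adjusted p = 5.58e-05) and by 1.51 with LIF (SE 0.31, adjusted p = 0.00966). In the M21 transcripts 19.7% of its 50-base stretches occur in other genes. H2-Q7 holds most of these and had at most 2 counts in any library. H2-K1 comes next and had 3721 to 6526 counts. The part of shared reads in the H2-Q10 counts was not tested.

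H2-T23 encodes Qa-1, which shows leader peptides of other class I chains to natural killer cell receptors. It stood at 20.4 and 15.7 CPM in control, 19.2 and 20.2 CPM with IL6, 25.7 and 25.5 CPM with LIF, and 32.7 and 31.4 CPM with OSM. As for H2-K1, the OSM libraries were the highest and the LIF libraries came next. The rises were 0.83 with OSM (SE 0.11, adjusted p = 8.77e-05) and 0.50 with LIF (SE 0.11, adjusted p = 0.0113). Fcgrt, the neonatal Fc receptor chain that also pairs with beta-2 microglobulin, rose by 0.60 with OSM (SE 0.11, adjusted p = 0.00279), from 48.2 and 60.2 CPM in control to 83.4 and 80.7 CPM. H2-M5 had 12 and 13 counts in control and 15 and 24 with OSM (0.63, SE 0.41, adjusted p = 0.318). These 3 OSM calls held without any single library, while the LIF calls of H2-Q10 and H2-T23 were each lost without either LIF library, and also without control replicate 1 (H2-Q10, adjusted p = 0.0573) or control replicate 2 (H2-T23, adjusted p = 0.0771). With LIF the list counted 2 of 10 higher and with IL6 0 of 10, where 7.7% and 0% of all tested genes were called in either direction.

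**Figure D5:**
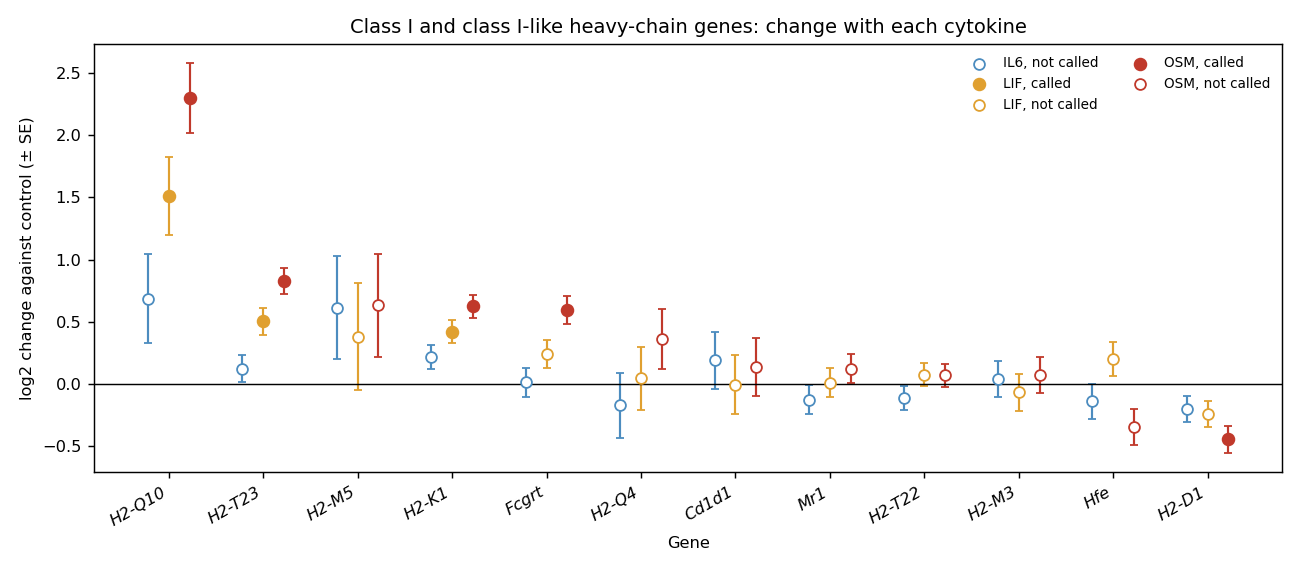
Log2 change against control, with SE bars, of the 12 tested class I and class I-like heavy chain genes for IL6, LIF and OSM, ordered by the OSM value; filled points were called. H2-Q10 (2.30), H2-T23 (0.83), H2-K1 (0.62) and Fcgrt (0.60) are called higher with OSM, and H2-D1 (-0.44) is the only heavy chain called lower.

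Peptide loading and trimming genes rose with OSM in 3 of 9 tested cases and fell in 0, where 10.7% of all tested genes were called higher. Lnpep and Npepps, which encode aminopeptidases, rose by 0.36 (SE 0.058, adjusted p = 0.000646) and 0.35 (SE 0.057, adjusted p = 0.000705). Calr, the gene of the chaperone calreticulin, rose by 0.39 (adjusted p = 0.0397), a call that was lost without control replicate 1 (0.20, adjusted p = 0.157) and, with control replicate 2 in the fit, also when any other library was left out (adjusted p 0.0503 to 0.141). It held in 4 of 13 alternative settings, and neither DESeq2 (adjusted p = 0.098) nor the fit with no count filter (adjusted p = 0.179) called it. Tapbpl, a tapasin relative, was at 0.28 (adjusted p = 0.216). With LIF, 2 of 9 rose, Lnpep (0.25, adjusted p = 0.0166) and Npepps (0.20, adjusted p = 0.0497), both lost without either LIF library or control replicate 1, and Npepps also under further alternatives (adjusted p up to 0.35). With IL6 0 of 9 were called. Of the 7 proteasome activator and constitutive subunit genes, 0 were called with any of the 3 cytokines. Over all tested genes the shares called were 21.2% with OSM, 7.7% with LIF and 0% with IL6. With OSM, Psmb7 (-0.17, adjusted p = 0.062), Psmb5 (-0.16, adjusted p = 0.0959), Psme2 (-0.15, adjusted p = 0.302) and Psmb6 (-0.13, adjusted p = 0.131), the constitutive catalytic subunits and an activator subunit, had the largest values.

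Among the regulators of class I transcription, 4 of 13 tested genes rose with OSM (Stat2, Rela, Stat3 and Rfx5), where 10.7% of all tested genes were called higher. Stat2, which encodes a transcription factor of type I interferon signalling, stood at 25.5 and 27.1 CPM in control, 24.7 and 28.0 CPM with IL6, 50.1 and 47.2 CPM with LIF, and 37.9 and 40.5 CPM with OSM. It was highest with LIF, where it rose by 0.89 (SE 0.083, adjusted p = 3.83e-05), against a rise of 0.58 with OSM (SE 0.084, adjusted p = 0.000285). The log2 difference between OSM and LIF was -0.31 (adjusted p = 0.0285), called by edgeR but not when either library of these groups was left out (adjusted p 0.102 to 0.31). Rela, the NF-kB subunit p65, rose by 0.55 with OSM (SE 0.077, adjusted p = 0.000197) and by 0.37 with LIF (SE 0.078, adjusted p = 0.0104). The LIF call was lost without LIF replicate 1 (adjusted p = 0.108) or 2 (adjusted p = 0.0931). Irf7 had a value of -0.37 with OSM (adjusted p = 0.418), with control replicates 1 and 2 far apart at 5.76 and 3.32 CPM. Stat3 (0.27, adjusted p = 0.00405) and Rfx5 (0.34, adjusted p = 0.0262), named because they complete the count, lost their OSM calls without OSM replicate 1 (adjusted p = 0.0542 and 0.117), and Rfx5 also without OSM replicate 2 or either control library (adjusted p 0.0788 to 0.116). With LIF 3 of 13 rose (Stat2, Rela and Stat3, the last not called without LIF replicate 2) and 0 fell, where 7.7% of all tested genes were called. With IL6 0 of 13 were called, and 0% of all tested genes.

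Interferon transcripts were at the limit of detection. Ifng had 1 count in IL6 replicate 2 and 0 in the other libraries, and Ifnb1, Ifna4 and Ifnl2 had 0 in all 8, which allows up to 3 counts per library (counting error only). The receptor genes were present, and with OSM Ifnar2 rose by 0.30 (adjusted p = 0.0183) while Ifnar1 (0.16, adjusted p = 0.132), Ifngr2 (0.08, adjusted p = 0.634) and Ifngr1 (0.06, adjusted p = 0.594) were not called. This was 1 of 4 tested genes of a list of 8, where 21.2% of all tested genes were called. With LIF and IL6 it was 0 of 4, where the shares were 7.7% and 0%. The Ifnar2 call was lost without control replicate 1 (adjusted p = 0.0798), OSM replicate 1 (adjusted p = 0.0879) or OSM replicate 2 (adjusted p = 0.0987).

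The MHC class II pathway, which serves antigens taken up from outside, was nearly silent. Its master regulator Ciita had 0 counts in all 8 libraries, and 2 of its 9 genes were tested. Cd74, the invariant chain, rose with OSM by 0.87 (SE 0.24, adjusted p = 0.0206), from 49 and 50 counts in control to 78 and 104, and the call was lost without either control library (adjusted p = 0.0774 and 0.0692) or OSM replicate 2 (adjusted p = 0.187). H2-DMa was not called (0.09, adjusted p = 0.841). Thus 1 of the 2 was called with OSM, where 21.2% of all tested genes were called. With LIF and with IL6, 0 of the 2 were called.

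Markers of other cells moved alongside these values, and their part in the member changes was not tested. In bulk RNA, fewer cells of a type and less RNA per cell cannot be told apart. The 4 myoblast and proliferation markers summed to 425 to 443 CPM in control, 394 to 403 CPM with IL6, 332 to 349.5 CPM with LIF and 242 CPM in both OSM libraries. This fall lay in the proliferation gene Mki67, which went from 280.4 to 69.1 CPM with OSM (log2 change -2.02, adjusted p = 2.39e-08). The myoblast genes Pax7 (0.39, adjusted p = 0.000926) and Myf5 (0.82, adjusted p = 0.0272) rose, and Myod1 was not called (0.06, adjusted p = 0.76). The 7 fibroblast markers summed to 1652 to 1716 CPM in control, 1503 to 1703 CPM with IL6, 1983 to 2046 CPM with LIF and 2058 to 2166 CPM with OSM. Most of that sum was Col3a1, which rose from 1433 to 2018 CPM with OSM (0.49, adjusted p = 0.000361), and Pdgfra rose too (0.53, adjusted p = 0.0191). Col1a1 went the other way, with 309 and 169 CPM in control and 72.1 and 84.7 CPM with OSM, without being called (-1.61, adjusted p = 0.0845). The 6 endothelial markers stayed at or under 2.28 CPM. The 6 dendritic cell markers summed to 7.32 to 11.9 CPM, nearly all of it Zbtb46, and the other 5 had at most 7 counts in any library.

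Over the 8 libraries, the mean profile of the 10 members (the average of their standardised log2 CPM) was highest in control replicate 1 (0.44) and lowest in IL6 replicate 1 (-0.66). Among 10862 genes averaging 100 counts or more, the profiles most like it were those of Tdrd3 (Pearson r 0.962), Nat14 (0.958), Lap3 (0.954), Cyfip2 (0.948) and Larp1 (0.946). These 5 are the highest of 10862 values over 8 libraries that share 4 groups, so r is a description only. Lap3 encodes a leucine aminopeptidase and is also in the trimming list. None of the 5 was called with OSM, LIF or IL6 against control. Among the members themselves, H2-K1 ran opposite to Tap1 (r -0.82) and to H2-D1 (r -0.61), and Tap1 ran with Psmb8 (r 0.77) and H2-D1 (r 0.69), again as a description over 8 libraries.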

How the data were processed

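The deposited values are raw counts per gene, 1 file per library, for 8 libraries made with a stranded poly(A) kit per the labels' protocols. The authors did not scale them: whole-number counts sum to between 29482077 and 30025471. Per the submitters' processing notes, the tools named are FastQC 0.11.9, MultiQC 1.12, Trim Galore 0.6.5, STAR 2.7.3a, HTSeq 0.11.1 and DESeq2 1.34.0 with GRCm39. The annotation release and HTSeq's strand setting are not given in the sources used here. Summary lines (11.7% to 12.7% of reads) were left out. Because the only gene models used were GENCODE M21 on GRCm38, gene coordinates are not given, and exon length, overlap and shared 50-base stretches come from M21. Symbols were matched for 52093 of 53647 identifiers.

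Genes were filtered with filterByExpr (minimum count 10), scaled by TMM and fitted with edgeR 4.0.16 in R 4.3.3 (robust quasi-likelihood, a mean per group, all 8 libraries, 4 residual degrees of freedom). P-values were adjusted by Benjamini and Hochberg over 15603 genes in each of 6 comparisons. The scripts were tested on simulated data. Replicates differed by more than counting error (mean chi-square per gene 2.97 to 12.0), so none was treated as a duplicate. The members and the 6 other pathway lists and 7 marker lists were chosen with earlier results of these data known. Named genes are all members, up to 4 tested genes per pathway list with the largest absolute log2 change with OSM, and the 5 genes most like the member profile; others are said to be chosen later. The result of 1 gene of the regulator list is not reported here. Alternatives were size factors of DESeq2, no count filter, a replicate block, fits of only the groups compared, leaving out each library, DESeq2 1.42.0 and a 2-fold minimum.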

Additional observations from a re-analysis of the deposited data

How the results depend on the processing

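The 5 member values called kept their sign under all 13 alternative settings, and 7 of the 55 member values not called were called under at least 1 setting. Requiring a 2-fold change left 0 members called with OSM, LIF or IL6 against control and 0 for OSM against IL6, since no called member changed that much. Leaving out 1 library at a time gave 1 to 3 members called for OSM against control, 0 to 1 for LIF against control, 0 to 1 for IL6 against control, 0 to 1 for OSM against LIF, 0 to 2 for OSM against IL6 and 0 to 1 for LIF against IL6; with a library left out, a group keeps 1 sample that is assumed to vary like the other groups. DESeq2 called 2 members for OSM against IL6 (H2-K1 and Tapbp), and 2072 of all genes. Fitting only OSM and LIF called 2 members between them (H2-K1, adjusted p = 0.00297, and Tap1, adjusted p = 0.0162), and the cause was not tested. Outside the main fit and DESeq2, the number of all genes called was not counted. Members gained or lost under the other settings therefore cannot be set against all genes. Among the gene values called under at least 1 setting, that of Irf9 was the only one to change direction for a cytokine against control, which is why it is named; it had a log2 value of -0.24 with OSM (adjusted p = 0.467) and 0.22 without control replicate 1 (adjusted p = 0.37), with a lowest value of -0.58 (adjusted p = 0.00745) without control replicate 2. With the replicate number as a block, 1 member was called for OSM against LIF (Tap1, adjusted p = 0.0187), 3 for OSM against IL6 (H2-K1, Tap1 and Tapbp) and 1 for LIF against IL6 (Tapbp, adjusted p = 0.0446), and no member's call against control changed. The main fit had no block because the labels do not say that replicate numbers pair the libraries. Deviations from the group mean of libraries with the same number correlated at r = 0.01 to 0.18 over genes. These values do not settle whether the numbers pair the libraries. The counts of Psmb8, Psmb9 and Nlrc5 limit what can be seen of them, and 2 libraries per group limit all tests.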

Other observations

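The 2 control libraries differed at several of the genes named, in both directions, and over all genes the IL6 pair differed by more (mean chi-square per gene 11.96, against 9.71 for the control pair). Irf9, chosen after its values were seen, had 417 counts in control replicate 1 and 242 in control replicate 2, with 229 to 310 in the other 6 libraries. Irf7 had 168 and 99 counts, H2-T23 594 and 469, H2-K1 4649 and 3721, and H2-D1 1084 and 875 in the same pair. Nlrc5 had 60 and 47. The order was the opposite for Tap1 (243 and 271), Tap2 (232 and 313) and Tapbp (1073 and 1220), and B2m was level (10838 and 10875). With 2 control libraries it was not tested which of them is nearer to other untreated myotubes.

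Genes most like H2-K1 and H2-D1 were also looked up, a choice made after the member values were seen. Over the 8 libraries, H2-K1 was most like Mcfd2 (r 0.987), Ust (0.985), Zpr1 (0.983), Arrb1 (0.980) and Zfp710 (0.980). With OSM, Zpr1 rose by 0.69 on the log2 scale (edgeR adjusted p = 0.000151) and Arrb1, which encodes beta-arrestin 1, by 0.71 (adjusted p = 0.00243). Mcfd2 (0.35, adjusted p = 0.00186) and Zfp710 (0.40, adjusted p = 0.022) rose too, and Ust was not called (0.20, adjusted p = 0.212). H2-D1 was most like Acaca (r 0.983), Cavin2 (0.979), Faf1 (0.975), Eif3d (0.974) and Ruvbl1 (0.969). Acaca, the acetyl-CoA carboxylase of fatty acid synthesis, had a log2 change of -0.49 with OSM (adjusted p = 0.00971), and Cavin2 one of -0.51 (adjusted p = 0.00197). Eif3d (-0.31, adjusted p = 0.00645) and Ruvbl1 (-0.30, adjusted p = 0.0311) were also called, and Faf1 was not (-0.21, adjusted p = 0.0517). These r values are the highest of 10862 and are given as a description only. The genes were chosen by likeness over the same 8 libraries, so the direction of their changes with OSM follows from that choice. Their adjusted p-values therefore add no support to the changes of H2-K1 and H2-D1.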
